A study of Mus musculus with 30 samples.

Results

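The genes followed here mark macrophages and other leukocytes: Ptprc, Emr1 (current symbol Adgre1), Itgam, Csf1r, Fcgr1, Tyrobp, Mertk, Aif1, Cd68 and Lyz2. They were taken by symbol from the count files, and all 10 were found among 22609 genes. All 10 also passed the filter on low counts in every comparison. The sequenced RNA came from 2 tissues of C57BL/6J mice that were 10 to 12 weeks old, the hind paw and the dorsal root ganglia (DRG), where the cell bodies of sensory neurons lie. The 30 libraries fell into 10 groups of 3. In each tissue these were female PRL_Sh, female prolactin (PRL), male PRL, female vehicle (Veh) and male Veh. PRL was 1 µg injected into the paw, and the vehicle named in the protocol is PBS. The protocol lists a single injection and 1 injection a day for 12 days, and the labels do not say which library had which. The labels do not explain Sh. They mark the PRL_Sh libraries as mRNA libraries and the other 24 as rRNA-depleted. They do not say that replicates are separate animals, so p-values measure the spread between these libraries, which may be technical. By label 18 libraries are female and 12 male; the series' own text has these numbers the other way round, and the labels were followed.

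Macrophages live in skin, muscle and nerve, arise from monocytes or from cells seeded before birth, and depend on signals through the receptor Csf1r. They clear dead cells and microbes, using Fc receptors for targets coated with antibody and receptors such as Mertk for dying cells. In sensory ganglia they lie close to the neurons and to the satellite glia that wrap them. The 10 genes mark different breadths of this lineage. Ptprc encodes CD45, a phosphatase on nearly all leukocytes. Itgam (CD11b), Tyrobp and Lyz2 are shared with neutrophils, and Mertk is also known from glia and other cells that engulf debris.

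Reads in genes numbered 6.87 to 13.5 M per library in rRNA-depleted paw and 8.99 to 13.3 M in rRNA-depleted DRG. They numbered 21.8 to 23.2 M in PRL_Sh paw and 22.0 to 26.5 M in PRL_Sh DRG. Male paw Veh replicate 2 was the shallowest and had 13.6% of its reads in genes. The tissue labels were checked with markers. In the rRNA-depleted libraries, 7 keratinocyte markers summed to 46900 to 80300 CPM (gene reads scaled to a fixed library size) in paw and to 7.43 to 116 CPM in DRG. There, 10 sensory neuron markers summed to 13.4 to 884 CPM in paw and 4950 to 6540 CPM in DRG. The paw values held Pvalb, which skeletal muscle also expresses. Unless stated otherwise, levels are TMM-normalised CPM, and tests are edgeR quasi-likelihood F tests with Benjamini-Hochberg adjustment over all genes tested, with a threshold of 0.05. In these tissue samples, more cells of a type and more RNA per cell cannot be told apart.

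With prolactin most of the macrophage and leukocyte genes were higher in the paw in both sexes. In female paw 10 of 10 rose, where 6.54% of the 14721 genes tested rose, 1.01% fell and 7.55% changed in either direction. In male paw 8 of 10 rose, where 12.3% of all genes rose, 10.1% fell and 22.4% changed in either direction. Averaged over the sexes, 10 of 10 rose, where 14.9% of all genes rose, 10% fell and 24.9% changed. The median log2 change of the 10 genes was 1.48 in females and 1.33 in males, against -0.01 and 0.02 over all genes tested. The libraries of PRL and Veh did not overlap for 10 of 10 genes in females and for 9 of 10 in males, Mertk being the exception. Over all genes, 14.7% stood higher with PRL without overlap in females and 21.7% in males, and 19.8% stood lower without overlap in males, where none of the 10 did.

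**Figure D1:**
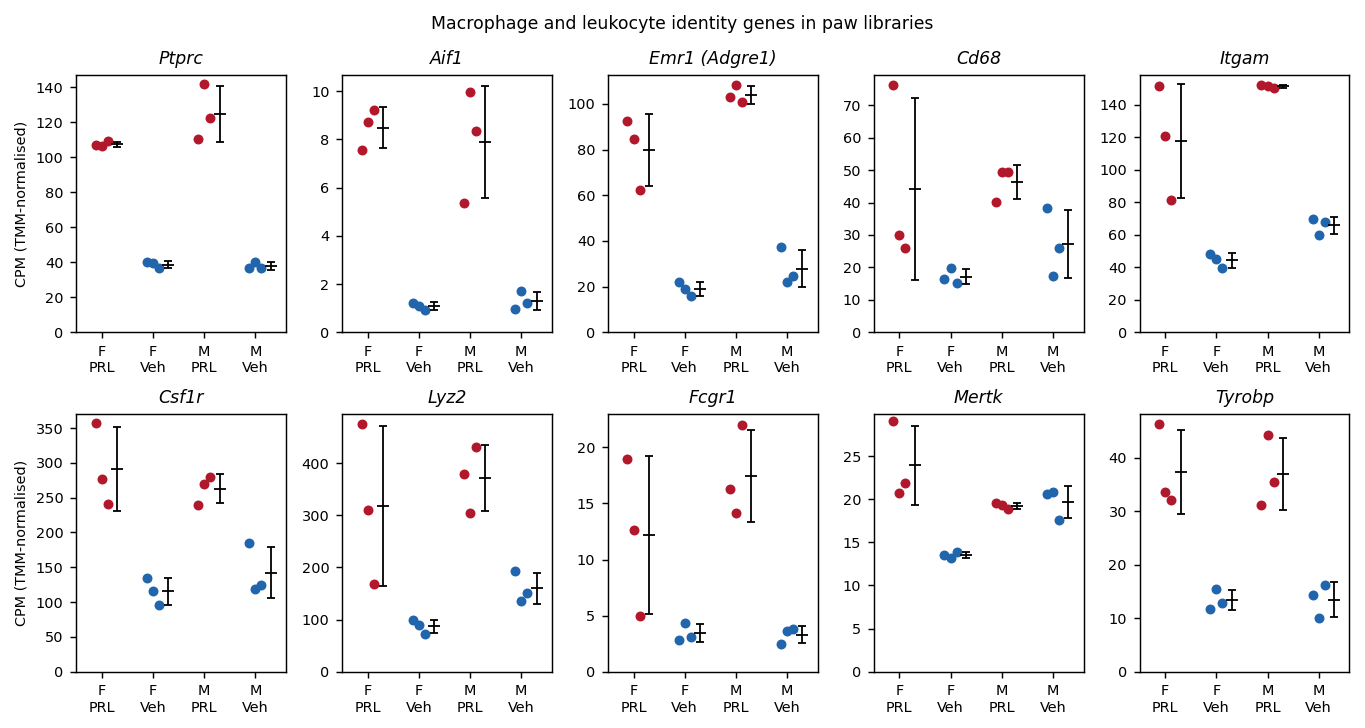
CPM of the 10 genes in each rRNA-depleted paw library, with PRL left of Veh in females (F) and then males (M); points are libraries and bars are mean ± SD (n = 3). The PRL libraries lie above the Veh libraries of the same sex for every gene except Mertk in males.

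Stretches before the transcription start are shown for 5 of the genes, Itgam, Cd68, Aif1, Fcgr1 and Mertk. RefSeq upstream windows of 250 bases were used for 7 of the 10 genes (mouse build GRCm38.p6; the counts were made on mm9). The chromosome of Csf1r was left out of the search for the 10 genes, so Csf1r had no window. That chromosome was not left out of the share over all windows given below. The windows lie at chr7:128062390-128062639 on the plus strand for Itgam, chr11:69666171-69666420 on the minus strand for Cd68, chr17:35176053-35176302 on the minus strand for Aif1, chr3:96293970-96294219 on the minus strand for Fcgr1 and chr2:128698665-128698914 on the plus strand for Mertk. They are written 5′ to 3′ on the gene's strand and end at the base before the start. Capitals mark GAGGAA, the core of the sites bound by the myeloid factor PU.1, read on either strand (TTCCTC where it lies on the other strand).
Itgam: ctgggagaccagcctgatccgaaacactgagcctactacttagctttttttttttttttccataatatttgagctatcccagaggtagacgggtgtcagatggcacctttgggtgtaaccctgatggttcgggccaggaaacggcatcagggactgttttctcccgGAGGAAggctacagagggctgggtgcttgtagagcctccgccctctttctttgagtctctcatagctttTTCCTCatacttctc
Cd68: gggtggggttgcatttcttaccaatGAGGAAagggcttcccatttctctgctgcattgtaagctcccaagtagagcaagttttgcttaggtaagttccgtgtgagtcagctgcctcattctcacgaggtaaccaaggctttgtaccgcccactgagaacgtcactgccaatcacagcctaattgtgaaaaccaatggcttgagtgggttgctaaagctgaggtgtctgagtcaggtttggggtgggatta
Aif1: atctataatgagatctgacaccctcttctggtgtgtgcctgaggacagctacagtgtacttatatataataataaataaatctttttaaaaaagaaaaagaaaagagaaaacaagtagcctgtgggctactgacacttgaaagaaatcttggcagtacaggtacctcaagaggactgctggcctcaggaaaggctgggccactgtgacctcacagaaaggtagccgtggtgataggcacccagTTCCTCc
Fcgr1: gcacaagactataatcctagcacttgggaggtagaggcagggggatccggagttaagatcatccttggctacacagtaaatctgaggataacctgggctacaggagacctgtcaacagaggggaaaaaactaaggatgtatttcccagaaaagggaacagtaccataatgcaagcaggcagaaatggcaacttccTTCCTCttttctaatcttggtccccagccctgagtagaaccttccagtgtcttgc
Mertk: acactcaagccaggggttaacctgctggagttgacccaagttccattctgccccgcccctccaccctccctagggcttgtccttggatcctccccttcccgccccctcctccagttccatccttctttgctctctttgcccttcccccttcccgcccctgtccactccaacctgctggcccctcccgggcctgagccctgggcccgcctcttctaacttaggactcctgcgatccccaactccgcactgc
In Itgam the motif began 84 and 15 bases before the start. It began 225 bases before the start in Cd68, 7 in Aif1 and 55 in Fcgr1. One of the 2 Ptprc windows held it 158 bases before the start, while the Lyz2 and Mertk windows did not hold these letters. The Lyz2 window is not shown, and Lyz2 rose in the paw in both sexes. It was therefore in 5 of 7 genes (5 of 8 windows), and in 23.3% of 32851 mouse windows of the same length. The longer form GAGGAAGT was in 0 of 7 genes and in 2.44% of all windows. Of other motifs searched on both strands, TTGCNNAA was in 1 of 7 genes (Cd68; 9.56% of all windows) and TATAAA in 1 (Ptprc; 12.4%). GAAA followed after any 2 bases by another GAAA was in 1 (Aif1; 2.98%). These matches describe letters and not bound sites, and a link between them and the changes was not tested.

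Among the surface markers, Ptprc had 107, 106 and 109 CPM in female paw PRL, against 40.1, 39.5 and 36.6 CPM in female paw Veh. In males it had 110.2, 142 and 123 CPM with PRL, against 37.0, 40.4 and 36.5 CPM with Veh. The female PRL libraries were within 3 CPM of each other, and no PRL library came near a Veh library. The log2 change of Ptprc was 1.47 ± 0.10 in females (SE, adjusted p = 7.22e-05) and 1.72 ± 0.10 in males (adjusted p = 1.4e-05). Emr1 encodes F4/80, the adhesion receptor by which mouse macrophages are usually stained. It had 92.5, 84.6 and 62.3 CPM in female paw PRL, against 22.1, 19.0 and 15.8 CPM in female paw Veh. Among males it had 103, 108 and 101 CPM with PRL, against 37.2, 22.0 and 24.5 CPM with Veh. Emr1 rose by 2.07 ± 0.21 in females (adjusted p = 0.000259) and by 1.89 ± 0.20 in males (adjusted p = 0.000149) on the log2 scale. Itgam encodes the integrin alpha chain that pairs with Itgb2 to form complement receptor 3. It had 151, 121 and 81.1 CPM in female paw PRL, against 48.3, 45.2 and 39.4 CPM in female paw Veh. The male libraries had 152, 152 and 150.2 CPM with PRL, against 69.4, 60.0 and 67.8 CPM with Veh. Itgam rose by 1.41 ± 0.18 in females (adjusted p = 0.000791) and by 1.20 ± 0.18 in males (adjusted p = 0.00088). In the current annotation 66.3% of the 50-base words of Itgam transcripts also lie in the readthrough gene Gm49368, which was not analysed here.

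Csf1r, the receptor for the growth factors Csf1 and Il34, had 357, 276 and 240.4 CPM in female paw PRL, against 134, 116 and 95.6 CPM in female paw Veh. In males it had 240, 270 and 279 CPM with PRL, against 185, 118 and 125 CPM with Veh. The groups did not overlap in either sex, and Male paw Veh replicate 1 was the closest to the PRL libraries. Csf1r rose by 1.34 ± 0.19 in females (adjusted p = 0.00159) and by 0.88 ± 0.19 in males (adjusted p = 0.00788). Its exons overlap those of Hmgxb3 on the other strand over 873 bases. The kits mark strand, but the counting setting is not given in the sources used here, so reads of that stretch may belong to either gene.

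Of the genes of phagocytic receptors, Fcgr1, the high-affinity receptor for IgG, had 19.0, 12.6 and 4.97 CPM in female paw PRL, against 2.82, 4.37 and 3.11 CPM in female paw Veh. Among males it had 16.3, 14.1 and 22.0 CPM with PRL, against 2.44, 3.59 and 3.83 CPM with Veh. Female paw PRL replicate 3 lay just above its vehicle libraries, whereas the male groups were far apart. Fcgr1 rose by 1.83 ± 0.41 in females (adjusted p = 0.018) and by 2.42 ± 0.41 in males (adjusted p = 0.00204). The female call was lost in a fit of the compared groups alone (adjusted p = 0.0846). It was also lost without female PRL replicate 1 (1.35, adjusted p = 0.0807), Veh replicate 1 (1.70, adjusted p = 0.0712) or Veh replicate 3 (1.76, adjusted p = 0.0808). Tyrobp encodes DAP12, the adaptor that passes signals from receptors such as Trem2 to Syk. It had 46.4, 33.7 and 32.1 CPM in female paw PRL, against 11.8, 15.4 and 12.8 CPM in female paw Veh. The male libraries had 31.2, 44.3 and 35.4 CPM with PRL, against 14.3, 9.98 and 16.2 CPM with Veh. Tyrobp rose by 1.49 ± 0.21 in females (adjusted p = 0.00126) and by 1.44 ± 0.21 in males (adjusted p = 0.000746), and no PRL library overlapped a Veh library.

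Mertk, a receptor kinase through which phagocytes take up dying cells, had 29.1, 20.8 and 21.9 CPM in female paw PRL, against 13.6, 13.2 and 13.9 CPM in female paw Veh. In males it had 19.5, 19.3 and 18.8 CPM with PRL, against 20.6, 20.9 and 17.5 CPM with Veh. The female groups were apart, while the male PRL libraries lay inside the range of the male Veh libraries. Mertk rose by 0.82 ± 0.13 in females (adjusted p = 0.00295). In males its log2 change was -0.03 ± 0.13 (adjusted p = 0.892; 95% interval -0.32 to 0.26). The difference between the sexes was 0.85 ± 0.19 (unadjusted p = 0.000731, adjusted p = 0.205 in edgeR). In DESeq2 the same difference was 0.86 (adjusted p = 0.0269). The paw vehicle libraries of the sexes also stood apart for Mertk, males being above females. The same held for Itgam and Lyz2, while the vehicle libraries of the sexes overlapped for the other genes followed here. This difference between the sexes was not tested, and the share of all genes that stood apart in this way was not determined. Whether these genes stood apart more often than other genes therefore cannot be said.

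Aif1 encodes Iba1, a calcium-binding protein of the actin skeleton used to stain macrophages and microglia. It had 7.55, 8.71 and 9.20 CPM in female paw PRL, against 1.23, 1.09 and 0.914 CPM in female paw Veh. Among males it had 5.37, 9.96 and 8.34 CPM with PRL, against 0.961, 1.71 and 1.22 CPM with Veh. Every PRL library was above every Veh library. Aif1 rose by 2.96 ± 0.28 in females (adjusted p = 0.00022) and by 2.66 ± 0.28 in males (adjusted p = 0.000127), and its change in females was the largest of the 10 genes there. Cd68, a glycoprotein of late endosomes and lysosomes, had 76.4, 30.1 and 26.1 CPM in female paw PRL, against 16.6, 19.7 and 15.3 CPM in female paw Veh. The male libraries had 40.1, 49.4 and 49.4 CPM with PRL, against 38.2, 17.3 and 25.9 CPM with Veh. Cd68 rose by 1.36 ± 0.38 in females at the edge of the threshold (adjusted p = 0.0496). Its log2 change in males was 0.75 ± 0.37 (adjusted p = 0.166). The female call rested on single libraries: without PRL replicate 1 the change was 0.71 (adjusted p = 0.2), and leaving out Veh replicate 1, 2 or 3 gave an adjusted p of 0.133, 0.113 or 0.173. It was lost as well with RLE scaling (adjusted p = 0.0515) and in a fit of the compared groups alone (adjusted p = 0.125).

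Lyz2 encodes the lysozyme of macrophages and neutrophils. It had 475, 311 and 168 CPM in female paw PRL, against 98.2, 89.0 and 73.2 CPM in female paw Veh. In males it had 379, 305 and 430.5 CPM with PRL, against 194, 135 and 150.1 CPM with Veh. The groups were apart in both sexes, but the female PRL libraries differed widely among themselves. Lyz2 rose by 1.87 ± 0.30 in females (adjusted p = 0.00295) and by 1.22 ± 0.30 in males (adjusted p = 0.0133). The male call was lost without PRL replicate 3 (1.10, adjusted p = 0.052) or Veh replicate 2 (1.09, adjusted p = 0.0516). Of the 50-base words of Lyz2 transcripts 15.4% also occur in its near copy Lyz1, so counts of the pair are uncertain to that extent. Lyz1 averaged 15.8 ± 8.31 CPM in female paw PRL and 7.25 ± 1.38 CPM in female paw Veh, and 21.6 ± 9.99 CPM in male paw PRL and 11.5 ± 3.13 CPM in male paw Veh (SD, n = 3). Its log2 change was 1.12 ± 0.45 in females (adjusted p = 0.177) and 0.89 ± 0.43 in males (adjusted p = 0.162).

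Female paw PRL replicate 1 was the highest of its group for 8 of the 10 genes, the exceptions being Ptprc and Aif1. For none of the 10 genes did edgeR call a difference in the prolactin change between the sexes. At an unadjusted p under 0.05 there was 1 of 10, Mertk, where 13.1% of all genes were. Mertk was also the 1 of the 10 that DESeq2 called. Over all genes 0.00679% were called in edgeR, which is 1 gene, and DESeq2 called 161.

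**Figure D2:**
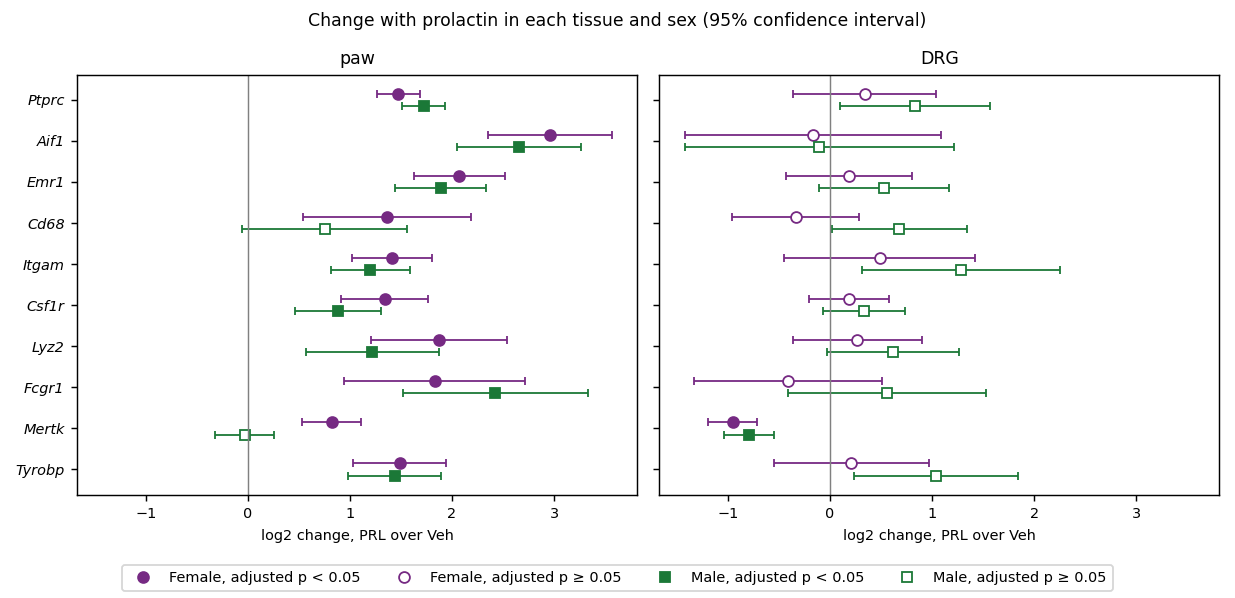
Log2 change with PRL over Veh (x axis) for each gene (y axis) in paw (left) and DRG (right), for females (purple circles) and males (green squares); whiskers are 95% confidence intervals and filled symbols have an adjusted p under 0.05. In paw all changes but that of Mertk in males, -0.03, lie to the right of 0, while in DRG Mertk alone is filled, at -0.95 in females and -0.79 in males.

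Genes that work beside the 10 were read from lists chosen by function, with earlier results of these data known. The counts of these lists are therefore not independent of the data. Of 14 pan-leukocyte genes, 13 rose in female paw and 13 in male paw, with medians of 1.26 and 1.48 on the log2 scale. In the mean of the sexes Srgn, the proteoglycan of secretory granules, rose by 1.53 ± 0.12 (adjusted p = 7.84e-06), Cd53 by 1.12, the phosphatase gene Ptpn7 by 2.01 and the actin bundler Lcp1 by 1.26. Around Tyrobp and Fcgr1, 12 of 15 receptors and kinases that signal through ITAM motifs rose in females and 13 of 15 in males. Averaged over the sexes, Fcgr4, a receptor for IgG, rose by 3.14 ± 0.30 (adjusted p = 2.39e-05). The inhibitory receptor Fcgr2b rose by 1.496, the kinase Lyn by 1.11 and Vav1, an exchange factor for Rac, by 1.69. Around Itgam, 4 of 7 genes of beta-2 integrins and their partners rose in females and 7 of 7 in males. Over both sexes Itgax (CD11c) rose by 2.50 ± 0.13 (adjusted p = 2.07e-06), Itgal by 1.86, Itgb2, the shared beta chain, by 1.62 and Fermt3, the integrin activator kindlin-3, by 1.30.

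Around Csf1r the list was mixed. Of 11 ligands, related receptors and lineage factors 3 rose in females, and 5 rose and 2 fell in males, with medians of 0.11 and 0.50. Csf2rb and Csf2ra, chains of the GM-CSF receptor, rose by 1.39 ± 0.14 and 1.33 ± 0.14 in the mean of the sexes (adjusted p = 3.1e-05 and 5.87e-05). There Irf8, a factor of monocyte development, rose by 1.71 and Nr1h3, the oxysterol receptor LXR-alpha, by 0.80. The ligand Csf1 rose in males by 0.71 ± 0.18 (adjusted p = 0.0138) and its log2 change in females was 0.11 (adjusted p = 0.778). Il34, the other ligand, had a log2 change of -0.05 in the mean of the sexes (adjusted p = 0.8).

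Around Mertk, 2 of 9 genes of the TAM receptors, their ligands and the engulfment machinery rose in females, and 1 rose and 1 fell in males. Dock2 and Elmo1, which activate Rac, rose by 1.52 ± 0.09 and 0.40 ± 0.09 in the mean of the sexes (adjusted p = 2.16e-06 and 0.00551). Tyro3, a receptor of the same family as Mertk, fell in males (log2 change -0.62 ± 0.15, adjusted p = 0.014). In the mean of the sexes the third family member, Axl, had a log2 change of 0.21 (adjusted p = 0.0987), and the ligand Gas6 of -0.06 (adjusted p = 0.809). Around Cd68 and Lyz2, 5 of 12 phagolysosome genes rose in females and 7 of 12 in males. Averaged over the sexes, the proteases Ctss, Lgmn and Ctsb rose by 2.28, 0.88 and 0.80 and the acid lipase gene Lipa by 1.00 on the log2 scale.

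Of 17 further macrophage genes 11 rose in females, and 12 rose and 2 fell in males. Clec7a, the beta-glucan receptor dectin-1, rose by 2.42 ± 0.16 in the mean of the sexes (adjusted p = 4.72e-06), the sialic acid receptor Siglec1 by 2.65, the pore protein gene Mpeg1 by 1.98 and C1qa, of complement C1, by 1.57. The members that fell in males were Cd163, a haemoglobin scavenger receptor, and Lyve1, a hyaluronan receptor. Both are known from resident macrophages, and lymphatic vessels also express Lyve1. Cd163 changed by -1.41 ± 0.22 (log2, adjusted p = 0.00131) and Lyve1 by -1.41 ± 0.31 (adjusted p = 0.00752) in males. In females their log2 changes were -0.66 (adjusted p = 0.102) and -0.67 (adjusted p = 0.23) in edgeR, while DESeq2 called Cd163 lower in females as well.

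Among 13298 paw genes that are not in the set, those with the pattern most like its mean were ranked by Pearson correlation of log2 CPM over the 12 rRNA-depleted paw libraries. The list ran from Sirpa (r = 0.993) through Rassf4, Mpeg1, Col15a1, Cybb, Sdc3, Ctsz, B2m and Apobec1 to Nckap1l (r = 0.989). The libraries share their groups, and the coefficients over deviations from the group means ran from 0.84 for Cybb to 0.96 for Nckap1l. Sirpa averaged 225 CPM in female paw PRL and 98.0 CPM in female paw Veh, and 235 CPM in male paw PRL and 113 CPM in male paw Veh. Each gene's correlation with the mean of the other 9 was highest for Emr1 (r = 0.98) and lowest for Mertk (r = 0.686). These values too carry the group difference: over deviations from the group means, the median correlation with the other members was 0.349 for Mertk, 0.0045 for Ptprc and -0.191 for Aif1.

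Markers of other cell types moved in the same paw libraries. Summed over 8 T cell markers, CPM ran from 15.8 to 28.6 in female PRL and from 3.88 to 5.58 in female Veh, and from 13.2 to 22.6 in male PRL and from 3.77 to 4.52 in male Veh. Of the 6 tested, 4 rose in each sex. Summed over 11 neutrophil markers, CPM ran from 52.3 to 118 in female PRL and from 34.6 to 51.6 in female Veh, and from 103 to 548 in male PRL and from 17.5 to 55.5 in male Veh. Of 7 tested, 1 rose in females and 4 in males, and the granule gene Elane was at 0 in female Veh and male PRL. Summed B cell markers ran from 2.71 to 4.99 CPM in female PRL and from 0.274 to 0.793 CPM in female Veh, with Pax5 and Cd22 at 0 in Veh. In males they ran from 3.10 to 3.53 CPM with PRL and from 0.489 to 1.56 CPM with Veh. Of 2 tested, Cd22 rose in each sex. Summed NK cell markers ran from 4.11 to 8.06 CPM in female PRL and from 0.882 to 2.18 CPM in female Veh, with Gzma at 0 in Veh. In males they ran from 3.10 to 11.7 CPM with PRL and from 0.935 to 1.14 CPM with Veh, with Ncr1 and Gzma at 0 in Veh. Of 3 tested, 1 rose in females and 2 in males. Summed dendritic and Langerhans cell markers ran from 29.2 to 45.7 CPM in female PRL and from 15.4 to 19.9 CPM in female Veh, and from 19.4 to 35.1 CPM in male PRL and from 12.4 to 15.4 CPM in male Veh. Of 8 tested, 3 rose in females and 4 in males.

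Of 6 mast cell markers 0 passed in edgeR in either sex and 0 were called by DESeq2. At an unadjusted p under 0.05 there were 0, where 20.6% of all genes were in females and 35.9% in males. Their sum ran from 121 to 171 CPM in female PRL and from 104 to 148 CPM in female Veh, and from 67.7 to 97.0 CPM in male PRL and from 86.5 to 145 CPM in male Veh. Among cells that are not leukocytes, 4 of 8 fibroblast markers rose in each sex. Those called by DESeq2 in each sex were the collagen genes Col1a1, Col1a2 and Col3a1, and Postn. DESeq2 did not call Dcn, Lum, Pdgfra or Fbln1. The sum of the 8 fibroblast markers ran from 18000 to 24300 CPM in female PRL and from 6630 to 8540 CPM in female Veh, and from 21700 to 32200 CPM in male PRL and from 10500 to 15800 CPM in male Veh. Of 7 keratinocyte markers 4 fell in males, with a sum of 46900 to 54400 CPM with PRL and 73000 to 80300 CPM with Veh. Summed muscle markers ran from 673 to 14100 CPM in female PRL and from 3750 to 13400 CPM in female Veh, and from 14700 to 33800 CPM in male PRL and from 4060 to 18800 CPM in male Veh. With the muscle level as a covariate 10 of the 10 genes passed in females and 8 in males. The part of the other cell types in the changes of the 10 genes was not tested.

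In the DRG, Mertk alone of the 10 genes passed the test, and it was lower with prolactin in both sexes. Over all 14705 genes tested, 0.36% were lower in females, 0.292% higher and 0.653% either. In males 0.231% were lower, 0.286% higher and 0.517% either. Averaged over the sexes, 1.47% of all genes were lower, 2.14% higher and 3.6% either. The median log2 change of the 10 genes was 0.19 in females and 0.59 in males, with 6 and 8 genes above 0.

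Mertk had 36.2, 38.7 and 34.2 CPM in female DRG PRL, against 66.2, 71.4 and 73.9 CPM in female DRG Veh. Among males it had 41.9, 34.1 and 33.6 CPM with PRL, against 52.8, 70.8 and 66.8 CPM with Veh. Every PRL library was below every Veh library of the same sex, as were 7.72% of all genes in females and 9.73% in males. None of the 10 genes was higher without overlap in either sex, where 7.8% of all genes were in females and 9.62% in males. For 10 genes, 0 is near those shares. Mertk fell by 0.95 ± 0.11 in females (log2, adjusted p = 0.00176) and by 0.79 ± 0.11 in males (adjusted p = 0.00586). Over both sexes it fell by 0.87 ± 0.08 (adjusted p = 8.4e-05). The change differed between females and males by -0.16 ± 0.16 (95% interval -0.50 to 0.18). Of 8 satellite and Schwann glia markers the sums ran from 17500 to 22700 CPM in female DRG PRL and from 13600 to 15100 CPM in female DRG Veh, and from 18400 to 21100 CPM in male DRG PRL and from 11800 to 16100 CPM in male DRG Veh. Such sums weigh the most abundant markers most. The mean log2 CPM over the 8 glia markers was 9.11 in female DRG PRL and 8.89 in female DRG Veh. In males it was 9.1 with PRL and 8.91 with Veh. Of 8 fibroblast markers 4 rose in each sex. Fibroblast sums ran from 4920 to 6940 CPM in female DRG PRL and from 2940 to 4260 CPM in female DRG Veh, and from 4170 to 4940 CPM in male DRG PRL and from 2330 to 3240 CPM in male DRG Veh. The part of glia and fibroblasts in the Mertk difference was not tested.

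**Figure D3:**
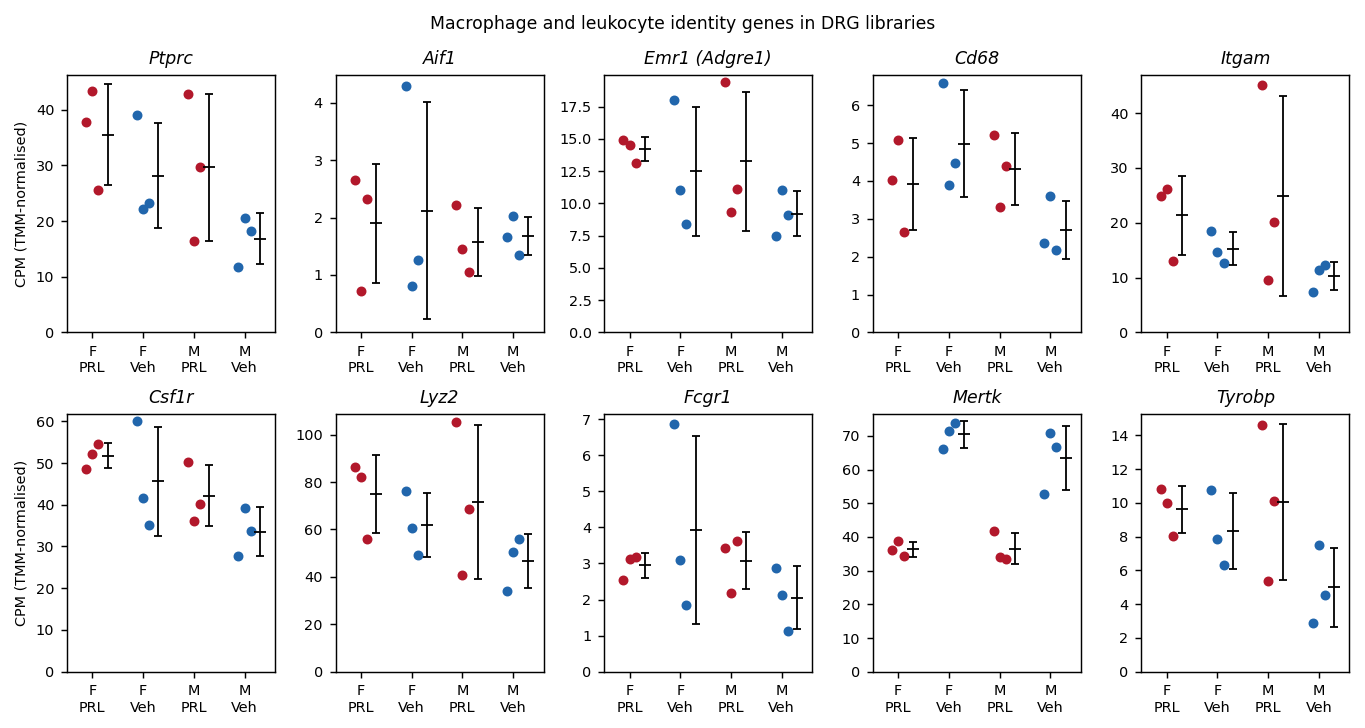
CPM of the 10 genes in each rRNA-depleted DRG library, with PRL left of Veh in females (F) and then males (M); points are libraries and bars are mean ± SD (n = 3). Mertk is the gene whose PRL libraries, at 33.6 to 41.9 CPM, all lie below the Veh libraries, at 52.8 to 73.9 CPM.

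The other 9 genes did not pass the test in the DRG in either sex, and their groups overlapped in each sex. This held in edgeR and DESeq2. Of the surface markers, Ptprc had 37.7, 43.4 and 25.5 CPM in female DRG PRL, against 39.0, 22.2 and 23.3 CPM in female DRG Veh. The male libraries had 42.9, 16.4 and 29.8 CPM with PRL, against 11.7, 20.5 and 18.2 CPM with Veh. Its log2 change was 0.34 ± 0.32 in females (adjusted p = 0.7) and 0.83 ± 0.34 in males (adjusted p = 0.279). Emr1 averaged 14.2 ± 0.94 CPM in female DRG PRL and 12.5 ± 4.98 CPM in female DRG Veh, and 13.3 ± 5.38 CPM in male DRG PRL and 9.21 ± 1.75 CPM in male DRG Veh (SD, n = 3). Csf1r averaged 51.7 ± 3.04 CPM in female DRG PRL and 45.6 ± 13.0 CPM in female DRG Veh, and 42.2 ± 7.28 CPM in male DRG PRL and 33.6 ± 5.80 CPM in male DRG Veh. In males the adjusted p was 0.424 for Emr1 and 0.425 for Csf1r. Without female DRG Veh replicate 1, Csf1r passed in the mean of the sexes (0.38, adjusted p = 0.0449).

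Itgam had 24.8, 26.2 and 13.0 CPM in female DRG PRL, against 18.5, 14.7 and 12.6 CPM in female DRG Veh. In males it had 45.1, 9.62 and 20.1 CPM with PRL, against 7.36, 11.3 and 12.2 CPM with Veh. Its log2 change was 0.49 ± 0.43 in females (adjusted p = 0.675) and 1.28 ± 0.45 in males (adjusted p = 0.221). Summed neutrophil markers followed the same libraries. They stood at 487, 543 and 189 CPM in female DRG PRL, against 216, 217 and 182 CPM in female DRG Veh. In males they stood at 1008, 158 and 441 CPM with PRL, against 83.03, 164 and 187 CPM with Veh. Male DRG PRL replicate 1 was the highest of the 12 DRG libraries for both, and without it the male change of Itgam was 0.55. It was also the highest for Tyrobp, Emr1 (19.4 CPM), Lyz2 (105 CPM) and the summed CPM of the 10 genes (330 CPM). It was not the highest for Ptprc, Csf1r, Mertk, Cd68, Aif1 or Fcgr1. Without that library the male change of Emr1 was 0.16. Without male PRL replicate 2, the lowest PRL library for both, Itgam passed in the mean of the sexes (1.08, adjusted p = 0.0332). All 11 neutrophil markers were tested, and none was called in either sex in edgeR. At an unadjusted p under 0.05, 1 was higher in females and 11 in males, where 6.79% and 8% of all genes were. DESeq2 called 0 in females and 1, Ngp, in males. In the mean of the sexes edgeR called 1 (Mpo, higher) and DESeq2 called 7, all higher. All 11 were higher there at an unadjusted p under 0.05, where 11.6% of all genes were. The part of neutrophils in the Itgam values was not tested.

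**Figure D4:**
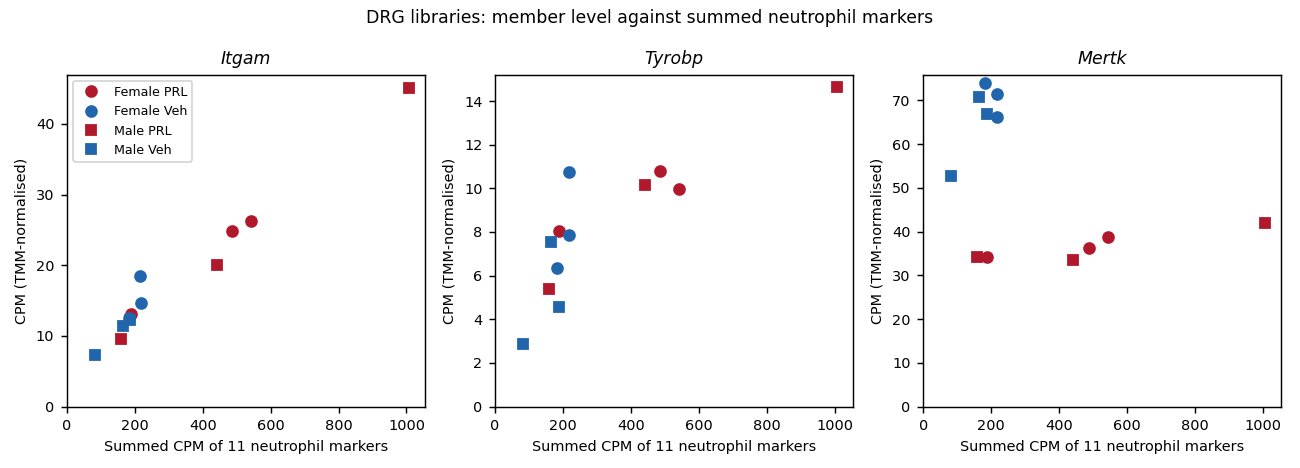
CPM of Itgam, Tyrobp and Mertk (y axes) against the summed CPM of 11 neutrophil markers (x axis) in the 12 rRNA-depleted DRG libraries, with PRL in red, Veh in blue, females as circles and males as squares. The library with the highest neutrophil sum, 1008 CPM, also has the highest Itgam, 45.1 CPM, and Tyrobp, 14.6 CPM. Mertk lies between 33.6 and 41.9 CPM in the PRL libraries and between 52.8 and 73.9 CPM in the Veh libraries.

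Tyrobp had 10.8, 9.98 and 8.05 CPM in female DRG PRL, against 10.8, 7.87 and 6.34 CPM in female DRG Veh. Among males it had 14.6, 5.38 and 10.1 CPM with PRL, against 2.88, 7.52 and 4.56 CPM with Veh, for a log2 change of 1.04 ± 0.37 (adjusted p = 0.231). Lyz2 averaged 74.8 ± 16.5 CPM in female DRG PRL and 62.1 ± 13.5 CPM in female DRG Veh, and 71.6 ± 32.3 CPM in male DRG PRL and 46.7 ± 11.5 CPM in male DRG Veh (SD, n = 3). Cd68 averaged 3.92 ± 1.22 CPM in female DRG PRL and 4.99 ± 1.41 CPM in female DRG Veh, and 4.31 ± 0.95 CPM in male DRG PRL and 2.71 ± 0.77 CPM in male DRG Veh. At an unadjusted p under 0.05, Ptprc, Cd68, Itgam and Tyrobp were higher with PRL in males, where 8% of all genes were. None of the 10 genes was in females, where 6.79% of all genes were. In the mean of the sexes Ptprc, Itgam and Tyrobp were higher at that unadjusted p, where 11.6% of all genes were. Their adjusted p was 0.17, 0.128 and 0.181. Mertk was lower there, where 9.89% of all genes were.

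Aif1 and Fcgr1 were the least abundant of the 10 per kilobase of exon in the DRG. Aif1 had 2.65, 0.713 and 2.33 CPM in female DRG PRL, against 4.29, 0.812 and 1.27 CPM in female DRG Veh. Fcgr1 had 2.54, 3.12 and 3.18 CPM in female DRG PRL, against 6.86, 3.09 and 1.85 CPM in female DRG Veh. Female DRG Veh replicate 1 was the highest of the 12 DRG libraries for both, for Cd68 (6.58 CPM) and for the summed T cell markers (8.49 CPM). Without it the log2 change in females was 0.85 for Aif1 and 0.24 for Fcgr1, where it was -0.17 and -0.41 with all libraries. In males Aif1 averaged 1.57 ± 0.59 CPM with PRL and 1.68 ± 0.34 CPM with Veh, and Fcgr1 3.08 ± 0.79 CPM with PRL and 2.05 ± 0.87 CPM with Veh (SD, n = 3).

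For none of the 10 genes did the DRG change differ between the sexes in edgeR, where 0% of all genes did. At an unadjusted p under 0.05 there was 1 of 10, Cd68 (-1.01 ± 0.42, adjusted p = 0.993), where 3.65% of all genes were, and DESeq2 called 0 of the 10 genes and 2 genes in all. The function lists were read in the mean of the sexes. Mfge8, a bridge between dying cells and phagocytes, rose by 0.36 ± 0.08 (adjusted p = 0.0275), the 1 of 8 TAM-related genes that passed. Cd163 fell by 0.80 ± 0.17 on the log2 scale (adjusted p = 0.0268), the 1 of 17 further macrophage genes that passed; DESeq2 also called P2ry12, higher. Of 14 pan-leukocyte genes edgeR called 0, with 5 higher at an unadjusted p under 0.05 and 1, Rac2, called by DESeq2. Of 14 ITAM-related genes edgeR and DESeq2 called 0, with 5 higher at an unadjusted p under 0.05. Of 11 genes around Csf1r, 7 of the beta-2 integrin list and 12 of the phagolysosome list both tools called 0. At an unadjusted p under 0.05, 1 gene around Csf1r was higher, 0 of the integrin list moved and 1 phagolysosome gene was lower. Over all genes, 11.6% were higher and 9.89% lower at that unadjusted p in the mean of the sexes.

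Whether the prolactin change differed between paw and DRG was tested in 1 fit of the 24 rRNA-depleted libraries. It was larger in paw for 7 of the 10 genes, where 9.8% of all 15949 genes had a larger, 5.13% a smaller and 14.9% a different change. The difference was 2.96 ± 0.48 for Aif1 (log2, adjusted p = 0.000313), 2.07 ± 0.45 for Fcgr1 (adjusted p = 0.00371) and 1.64 ± 0.25 for Emr1 (adjusted p = 0.000207). It was 1.29 ± 0.12 for Mertk (adjusted p = 1.4e-06), whose change in the mean of the sexes was 0.39 in paw and -0.87 in DRG; in male paw alone it was -0.03. It was 1.12 ± 0.31 for Lyz2 (adjusted p = 0.0194), 1.03 ± 0.25 for Ptprc (adjusted p = 0.00882) and 0.87 ± 0.19 for Csf1r (adjusted p = 0.00417). For Cd68 (0.90 ± 0.37), Tyrobp (0.85 ± 0.30) and Itgam (0.44 ± 0.35) the adjusted p was 0.118, 0.0611 and 0.451. In DESeq2 Tyrobp passed as well (adjusted p = 0.041), and so did Tyrobp and Cd68 in edgeR without female paw PRL replicate 3 (adjusted p = 0.0463 and 0.0469). Tyrobp also passed without male DRG PRL replicate 1 (adjusted p = 0.0205) or male DRG Veh replicate 1 (adjusted p = 0.0248).

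In the function lists, of 12 phagolysosome genes 9 had a larger change in paw, as had 9 of 14 pan-leukocyte, 9 of 15 ITAM-related, 5 of 7 beta-2 integrin and 11 of 17 further macrophage genes. Examples are Lcp1 at 1.25 ± 0.12, Ctss at 2.39 ± 0.32, Itgax at 2.63 ± 0.46, Siglec1 at 2.80 ± 0.39 and Fcgr2b at 1.62 ± 0.26 on the log2 scale. Around Csf1r 4 of 11 had a larger and 1 a smaller change in paw. Around Mertk, Dock2 (1.17) and Elmo1 (0.44) had a larger change in paw, and Tyro3 (-0.44) and Mfge8 (-0.35) a smaller one.

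In vehicle libraries paw was above DRG for 7 of the 10 genes and below it for 1, where 43.2% of all genes were higher, 42.3% lower and 85.4% different in paw. Cd68 was 2.62 ± 0.27 higher on the log2 scale, Itgam 2.16 ± 0.26 and Csf1r 1.76 ± 0.14. Mertk was the exception, at 0.252 times the DRG level (log2 -1.99 ± 0.09, adjusted p = 1.16e-14). Aif1 (-0.64, adjusted p = 0.108) and Fcgr1 (0.27, adjusted p = 0.458) did not pass, but Aif1 was lower in paw without female DRG Veh replicate 2 (-0.84, adjusted p = 0.0272).

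Levels were compared between genes as CPM per kilobase of exon. In female paw PRL Lyz2 was highest at 244 ± 117, followed by Tyrobp at 67.1, Csf1r at 60.3, Cd68 at 35.5, Emr1 at 24.9, Itgam at 24.2, Ptprc at 21.2, Aif1 at 8.52, Mertk at 5.62 and Fcgr1 at 4.77 CPM per kilobase. Neighbours from Tyrobp to Ptprc were within the spread of the libraries, the SD being 12.1 for Csf1r, 22.2 for Cd68 and 7.15 for Itgam. In female DRG Veh Lyz2 was at 46.4, Mertk at 16.2, Tyrobp at 14.5, Csf1r at 9.18 and Ptprc at 5.41 CPM per kilobase, and the remaining genes were at 3.90 or less. By its mean Mertk thus stood second in the DRG with vehicle, in males as well (14.7 CPM per kilobase), and among the lowest 3 in paw. In female DRG Veh its libraries ran from 14.8 to 17.1 and those of Tyrobp from 11.2 to 18.4 CPM per kilobase. In male DRG Veh they ran from 12.3 to 16.2 for Mertk and from 5.11 to 13.2 for Tyrobp. The libraries of these genes therefore overlapped in both sexes.

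PRL_Sh libraries were compared with PRL libraries of female mice. The groups differ in library kit, mRNA selection for PRL_Sh and rRNA depletion for PRL, so that kit and group cannot be told apart. In paw 9 of the 10 genes were lower in PRL_Sh, where 29% of all 14800 genes were lower, 29.4% higher and 58.5% either. The 9 genes were lower without overlap, as were 32% of all genes. In DRG 5 of the 10 were lower, where 32.3% of all 14985 genes were lower, 29.3% higher and 61.6% either. There 4 of the 10 were lower and 0 higher without overlap, against 34.7% and 33.2% of all genes.

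In paw Ptprc had 9.69, 12.4 and 18.4 CPM in PRL_Sh, against 111, 112 and 113 CPM in PRL (log2 change -3.05 ± 0.23, adjusted p = 0.000108). Emr1 had 10.2, 8.55 and 9.92 CPM in PRL_Sh, against 95.7, 88.8 and 64.8 CPM in PRL (-3.12 ± 0.18, adjusted p = 5.84e-05). Itgam averaged 18.3 ± 1.55 CPM in PRL_Sh and 123 ± 36.2 CPM in PRL, and Csf1r 54.3 ± 2.31 CPM in PRL_Sh and 303 ± 60.9 CPM in PRL (SD, n = 3). Lyz2, Cd68, Mertk, Aif1 and Tyrobp were lower by log2 changes of -1.80, -1.90, -1.85, -1.52 and -1.42. Fcgr1 had 6.13, 11.2 and 7.76 CPM in PRL_Sh, against 19.7, 13.3 and 5.17 CPM in PRL, with overlapping groups (-0.60, adjusted p = 0.282). Without PRL replicate 3 it was lower too (-0.99, adjusted p = 0.0283).

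**Figure D5:**
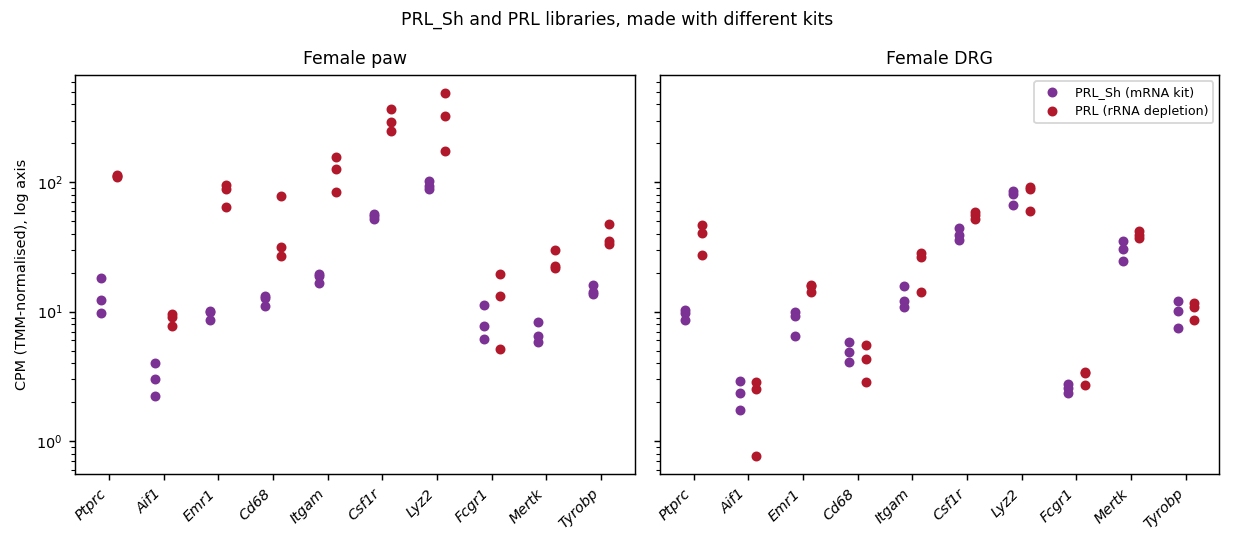
CPM of the 10 genes (log axis) in female paw and DRG libraries, PRL_Sh (purple, mRNA kit) left of PRL (red, rRNA depletion); points are libraries. In paw the PRL_Sh points lie below the PRL points for every gene but Fcgr1, and in DRG the widest gap is that of Ptprc, 8.68 to 10.3 CPM in PRL_Sh against 27.6 to 46.9 CPM in PRL.

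In DRG Ptprc had 8.68, 10.3 and 9.75 CPM in PRL_Sh, against 40.5, 46.9 and 27.6 CPM in PRL (log2 change -2.00 ± 0.19, adjusted p = 5.85e-05). Emr1 (-0.84 ± 0.17, adjusted p = 0.00337), Itgam (-0.84 ± 0.26, adjusted p = 0.022), Csf1r (-0.49 ± 0.09, adjusted p = 0.00233) and Mertk (-0.38 ± 0.13, adjusted p = 0.0349) were lower too. The call of Mertk was lost with no filter (adjusted p = 0.0567) and without any one of PRL replicate 1, 2 or 3 or PRL_Sh replicate 2 or 3 (adjusted p of 0.0599 to 0.126). That of Itgam was lost without PRL replicate 1 or 2 or PRL_Sh replicate 2 or 3 (adjusted p of 0.0609 to 0.0923). Lyz2, Tyrobp, Cd68, Aif1 and Fcgr1 had log2 changes between -0.31 and 0.22 and did not pass. Marker sums of other cells moved with the paw groups, fibroblast markers running from 2000 to 3220 CPM in PRL_Sh and 18700 to 25200 CPM in PRL, and muscle markers from 24300 to 48500 CPM in PRL_Sh and 700 to 14800 CPM in PRL. Their part in the differences was not tested.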

How the data were processed

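RNA-seq gene counts of 30 mouse libraries were deposited by the authors as whole-number counts per gene, 1 file per library. Per the submitters' processing notes these were made with bcl2fastq, TopHat2 and HTSeq on mm9; their versions, HTSeq's mode and whether it used strand are not stated in the labels. Per the labels' protocols, the kits mark strand and reads are single-end. Lines that name no gene were left out of library sizes and tests. Counts were tested with edgeR 4.0.16 (R 4.3.3, limma 3.58.1): filterByExpr, TMM scaling and the quasi-likelihood F test, with a threshold of 0.05 on Benjamini-Hochberg adjusted p. The 12 rRNA-depleted libraries of a tissue shared a fit, the paw and DRG comparison used all 24, and PRL_Sh was tested against PRL in 6 libraries a tissue. SE is the log2 change divided by the root of F. Replicate counts differed by more than counting noise, so none were merged. On simulated 2-fold changes in 200 genes the test recovered 65.5% in female paw, 78.5% in female DRG, 76.5% for the paw and DRG difference and 36.5% for PRL_Sh in paw; of the calls made, 4.38%, 4.27%, 1.92% and 11% in the same order were false. All other genes were simulated with no difference between groups, also between paw and DRG. These rates therefore need not hold for comparisons in which many genes differ. Genes per kilobase used GENCODE M21 exon lengths. The members and lists were chosen with earlier results of these data known, and up to 4 genes per list, those past the threshold with the smallest p, were named. Csf1, Il34, Tyro3, Axl, Gas6, Cd163, Lyve1, Mfge8, P2ry12, Rac2 and Ngp were named after their values were seen. Some items of the lists are not reported here. Alternatives were other filters, RLE scaling, DESeq2 1.42.0, a muscle covariate, a replicate block, the compared groups alone and leaving out each library.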

Additional observations from a re-analysis of the deposited data

Results flagged for a closer look

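For 7 of the 10 genes the change with prolactin differed between paw and DRG in a test of the difference itself, and each was more positive in paw. The log2 difference in edgeR, averaged over the sexes, was 1.03 for Ptprc, 2.96 for Aif1, 1.64 for Emr1, 0.87 for Csf1r, 1.12 for Lyz2, 2.07 for Fcgr1 and 1.29 for Mertk. Each of these held without any single library. The log2 change of Mertk in the mean of the sexes was 0.39 in paw (0.82 in females and -0.03 in males) and -0.87 in DRG. The marker sums of neutrophils, fibroblasts and glia that moved in these libraries are given above, and their part in the differences was not tested.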

How the results depend on the processing

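With 3 libraries a group, p-values rest on little replication. At the low levels of Aif1 and Fcgr1 in DRG, leaving out 1 library turned the sign of a change. Over the values of the 10 genes and all alternatives, 1868 kept their direction and side of the threshold, 23 were weaker, 10 passed the threshold newly and 39 changed sign, the cause of which was not tested. The 10 of 10 genes in the mean of the sexes in paw passed in edgeR whichever library was left out, and 8 to 10 did in female paw, 7 to 8 in male paw, 1 in female DRG and 1 in male DRG, 1 to 2 in the mean of the sexes in DRG, 7 to 9 for paw minus DRG, 8 to 9 for paw against DRG in Veh, 9 to 10 for PRL_Sh in paw and 3 to 5 for PRL_Sh in DRG.

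The number of all genes called was 579 (without female Veh replicate 3) to 1505 (without female PRL replicate 3) in female paw, 2017 to 2792 in male paw, 2804 to 4368 in the mean of the sexes in paw and 0 to 6 for the sex difference in paw when 1 library was left out. It was 20 (without female Veh replicate 2) to 171 (without female PRL replicate 3) in female DRG, 25 (without male Veh replicate 3) to 73 in male DRG, 271 (without female Veh replicate 2) to 992 (without female Veh replicate 1) in the mean of the sexes in DRG and 0 for the sex difference in DRG. It was 2024 to 3032 for paw minus DRG, 13465 to 13613 for paw against DRG, 6986 to 8104 for PRL_Sh in paw and 8099 to 8966 for PRL_Sh in DRG. With all libraries these counts were 1111 in female paw, 96 in female DRG, 76 in male DRG and 530 in the mean of the sexes in DRG. In a fit of the compared groups alone they were 597 in female paw and 34 in female DRG. In DESeq2 they were 161 for the sex difference in paw, of which 1 was among the 10 genes, and 205 in female DRG, 308 in male DRG, 837 in the mean of the sexes in DRG and 2 for the sex difference in DRG. With the muscle covariate they were 9 for the sex difference in paw, 37 in female DRG, 41 in male DRG and 207 in the mean of the sexes in DRG.

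The labels do not say whether same-numbered libraries are paired. Over deviations from the group means, correlations of same-numbered libraries ran from -0.564 to 0.355, and the highest of differently numbered ones was 0.588. These values cannot decide whether libraries share an animal, because other differences within a group, such as the summed muscle markers, enter them. With the replicate number as a block, 899 genes were called in female paw, 2906 in male paw, 92 in female DRG, 61 in male DRG and 0 for the sex difference in paw. Cd68 in female paw was then at 1.24 (adjusted p = 0.0758), and the sex difference of Aif1 in DRG was 0.0665.

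Log2 changes that crossed 0 when 1 library was left out were those of Mertk in male paw (-0.11 to 0.0076), Aif1 in female DRG (-0.57 to 0.85), male DRG (-0.42 to 0.12) and the mean of the sexes (-0.34 to 0.38), Fcgr1 in female DRG (-0.74 to 0.24) and the mean of the sexes (-0.0908 to 0.40) and Emr1 in female DRG (-0.026 to 0.54). For the sex difference in paw they were Cd68 (-0.0474 to 0.88), Itgam (-0.0117 to 0.42), Tyrobp (-0.14 to 0.22) and Emr1 (-0.0848 to 0.34). For the sex difference in DRG they were Aif1 (-0.47 to 0.95), Emr1 (-0.56 to 0.0285), Csf1r (-0.31 to 0.0935) and Lyz2 (-0.63 to 0.0328). For PRL_Sh in DRG they were Lyz2 (-0.20 to 0.0626), Tyrobp (-0.23 to 0.10) and Aif1 (-0.20 to 0.52). With the muscle covariate Aif1 was at 0.0248 in female DRG, 0.0032 in male DRG, 0.014 in the mean of the sexes and 0.0216 for the sex difference. With no filter Lyz2 was at 0.0074 for PRL_Sh in DRG. None of these passed the threshold. A fit of female paw without the shallow male Veh replicate 2, chosen after seeing the data, kept all 10 calls of the 10 genes.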
